A study of Homo sapiens with 3 samples.

Results

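Transcripts of 9 genes of the insulin-like growth factor (IGF) system were followed across 3 populations of human cells sorted by their surface CD105. The genes are the ligand IGF2, the receptors IGF1R and IGF2R, and the binding proteins IGFBP2, IGFBP3, IGFBP4, IGFBP5, IGFBP6 and IGFBP7. They were picked by symbol, with earlier results of these data known, and all 9 were found among the 18345 genes of each table. The cells were grown from H1, a widely used line of human embryonic stem cells, and were labelled as HEPs of day 4 of differentiation into blood. All 3 populations were CD31+CD34+ and shared the same culture, which was 2 days in 40 ng/ml activin A with 50 ng/ml BMP4, then 3 days in 40 ng/ml VEGF with 50 ng/ml bFGF. The 2 stages add up to more days than the label gives. By their labels the groups differed only in CD105, which was negative (CD105neg), low (CD105low) or high (CD105high), and each had 1 library made from 2 ug of total RNA.

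IGFs are secreted peptides that act on growth and survival through IGF1R, a receptor tyrosine kinase that signals by way of the IRS adaptors, PI3K and AKT. IGF2R, also known as the cation-independent mannose 6-phosphate receptor, takes up IGF2 for breakdown in lysosomes and carries lysosomal enzymes. The IGF-binding proteins hold IGFs outside the cell, and can limit them, deliver them or act without them; IGFBP7 binds IGFs weakly and is known from blood vessels. Endothelial cells respond to IGFs and make several of the binding proteins.

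With 1 library per group there was no spread between replicates, so every difference below is one between single libraries and has no replicate check, and no p-value is given. The files name no unit, and the values were treated as FPKM, fragments per kilobase of transcript scaled to the fragments mapped in the library. On such a scale, as on that of TPM, which the values do not tell apart from it, levels of different genes can be compared. Differences are log2 fold changes of FPKM plus 1, which understates the change of low genes. A gene was counted as higher or lower when it was at least 1.5-fold apart on that scale (a log2 fold change of 0.58 in either direction) and reached 1 FPKM in at least 1 library. That floor was passed by 11343 of the 18345 genes and by 8 of the 9 IGF genes, all but IGF2. Between 10917 and 11062 genes per library reached 1 FPKM. The genes of the sort followed their labels. The CD105 gene ENG was lowest in CD105neg (2.12 FPKM), with 8.56 FPKM in CD105low and 13.8 FPKM in CD105high. Lowest in CD105neg, too, were the genes of the gate that all populations shared. PECAM1 (CD31) stood at 29.9, 41.9 and 50.1 FPKM and CD34 at 21.0, 39.2 and 43.2 FPKM in the same order of libraries. In these bulk samples, fewer cells of a type and less RNA per cell cannot be told apart.

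IGFBP2 and IGFBP5 lie next to each other among the protein-coding genes of RefSeq, and they went in opposite directions across the sort. The 250 bases before the start of transcription are shown for these neighbours and for IGFBP4 and IGF1R, the other genes that were at least 1.5-fold apart between CD105high and CD105neg. Sequences are from RefSeq, build GRCh38.p14, and run 5′ to 3′ on the strand of the gene: chr2:216633170-216633419 on the plus strand for IGFBP2, chr2:216695550-216695799 on the minus strand for IGFBP5, chr17:40443200-40443449 on the plus strand for IGFBP4 and chr15:98648289-98648538 on the plus strand for IGF1R. Capitals mark the TATA box letters TATAAA, the GC box letters GGGCGG and the CCAAT box letters CCAAT, each on either strand.
IGFBP2: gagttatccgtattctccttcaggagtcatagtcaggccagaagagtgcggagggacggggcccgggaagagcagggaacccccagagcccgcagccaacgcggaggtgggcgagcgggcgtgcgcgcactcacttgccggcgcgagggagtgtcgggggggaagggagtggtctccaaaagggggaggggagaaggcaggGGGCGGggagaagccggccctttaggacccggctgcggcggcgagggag
IGFBP5: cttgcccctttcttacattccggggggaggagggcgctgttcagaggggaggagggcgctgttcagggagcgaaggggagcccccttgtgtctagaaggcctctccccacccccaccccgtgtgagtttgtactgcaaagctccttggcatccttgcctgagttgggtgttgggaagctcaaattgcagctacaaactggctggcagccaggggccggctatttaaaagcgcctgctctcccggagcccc
IGFBP4: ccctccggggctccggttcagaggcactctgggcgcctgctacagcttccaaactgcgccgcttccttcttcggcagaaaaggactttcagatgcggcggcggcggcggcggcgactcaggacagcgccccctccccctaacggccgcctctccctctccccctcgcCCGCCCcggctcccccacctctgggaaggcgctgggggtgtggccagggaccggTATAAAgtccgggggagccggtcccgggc
IGF1R: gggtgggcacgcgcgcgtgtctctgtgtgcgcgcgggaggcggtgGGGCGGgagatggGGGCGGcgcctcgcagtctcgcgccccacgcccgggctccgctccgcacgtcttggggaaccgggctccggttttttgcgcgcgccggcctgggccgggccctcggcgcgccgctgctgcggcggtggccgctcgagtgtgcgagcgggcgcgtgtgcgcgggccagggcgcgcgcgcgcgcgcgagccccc
A TATAAA starting 29 bases before the start site of IGFBP4 was the only TATA box match in the 4 windows. TATAAA was present in 10.7% of the 35114 windows of the same length before all starts in the RefSeq table. GC boxes were found in IGFBP2 (1), IGFBP4 (1) and IGF1R (2), against 42.6% of all windows with at least 1, and CCAAT in none of the 4, against 32.0%. None of the 3 motifs was in the IGFBP5 window in these exact letters, and variants of the letters were not searched for in any window. The neighbours also differed in CpG content, with 22 CpG dinucleotides and 69.2% G and C before IGFBP2, and 8 CpG dinucleotides and 61.2% G and C before IGFBP5, where the median of all windows was 11 CpG and 58% G and C. The IGF1R window held 48 CpG, and 99.8% of all windows held as few or fewer. RefSeq gave windows for 7 of the 9 genes, all but IGF2 and IGFBP7. It listed 3 starts for IGFBP2, of which the one nearest to the principal transcript in GENCODE 29 is shown.

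The 9 genes spanned levels from below 1 FPKM to 229 FPKM, and kept nearly the same order in each library. IGFBP2 and IGFBP4 were far above the rest, IGF1R and IGF2R came next, then IGFBP6, IGFBP7 and IGFBP5 in changing order, then IGFBP3 and IGF2. Neighbours in this order that traded places were IGF1R and IGF2R, and the group of IGFBP5, IGFBP6 and IGFBP7. With no replicates, whether such neighbours differ beyond their spread cannot be said.

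**Figure D1:**
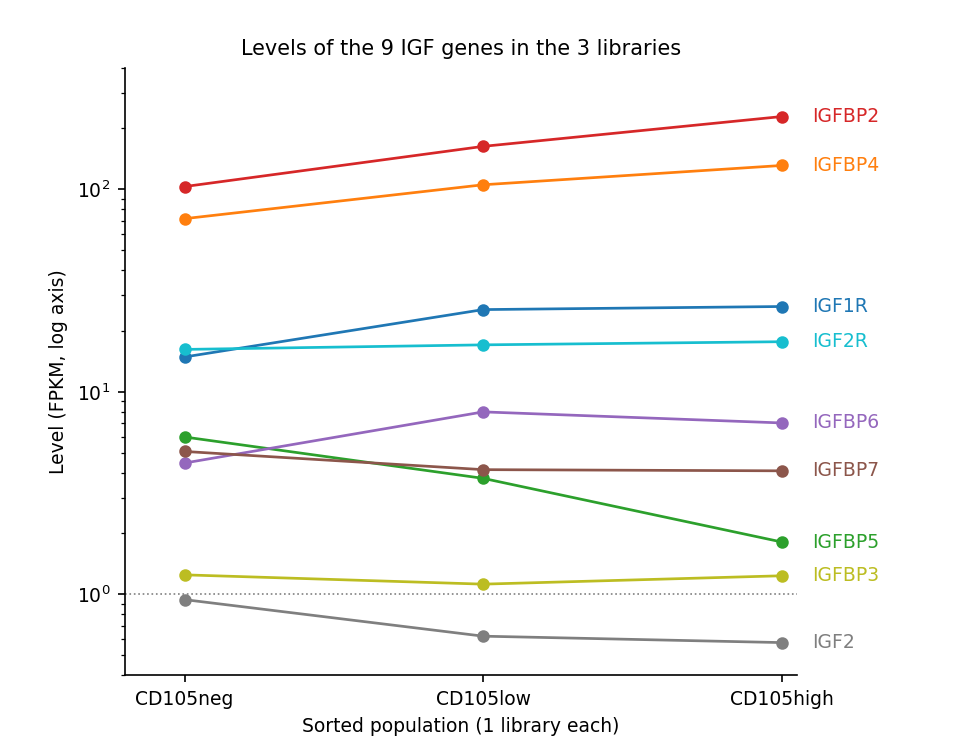
Level of each of the 9 IGF genes (FPKM, log axis) in the CD105neg, CD105low and CD105high libraries, with 1 point per library, lines joining the points of 1 gene and a dotted line at 1 FPKM. IGFBP2 and IGFBP4 climb together at the top, and IGFBP5 drops from 5.99 to 1.81 FPKM.

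IGFBP2 (ENSG00000115457.9), a binding protein made in large amounts by embryonic tissues, had a level of 103 FPKM in CD105neg, against 163 FPKM in CD105low and 229 FPKM in CD105high. It was thus lowest in CD105neg and highest in CD105high, and moved from place 415 to place 152 among all genes of a library ranked by level. The value in CD105high was 2.22 times that in CD105neg (log2 fold change 1.14), and 162 of the 11343 genes, IGFBP2 among them, had a log2 fold change at least as high. Among the 488 genes that reached 100 FPKM in a library, 15 were at least as high, a larger share than among all genes. Of these 488, 45 were at least 1.5-fold higher in CD105high than in CD105neg. The step from CD105neg to CD105low (log2 fold change 0.65) was past 1.5-fold, and the step from CD105low to CD105high (0.49) was not.

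IGFBP4 (ENSG00000141753.6), a binding protein that holds back IGF action and is released by the protease PAPP-A, had a level of 71.7 FPKM in CD105neg, against 105 FPKM in CD105low and 131 FPKM in CD105high. Its order over the libraries was that of IGFBP2, with smaller steps. CD105high was 1.83 times CD105neg (log2 fold change 0.86), and 26 of the 488 genes that reached 100 FPKM had a log2 fold change at least as high. CD105low lay just inside the 1.5-fold limit against CD105neg (0.55).

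IGFBP6 (ENSG00000167779.7), which prefers IGF2 over IGF1, was measured at 4.45 FPKM in CD105neg, with 7.97 FPKM in CD105low and 7.03 FPKM in CD105high. CD105neg was the lowest library, and the other two were close to each other. The log2 fold change was 0.72 for CD105low against CD105neg, which is past 1.5-fold, and 0.56 for CD105high against CD105neg, just inside the limit. With a pseudocount of 0.1 the second value was 0.65, and after centring all genes on their median it was also 0.65, both past the limit.

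IGFBP5 (ENSG00000115461.4), a conserved binding protein that attaches to extracellular matrix, was the one IGF gene counted as lower in any pair. Its level was 5.99 FPKM in CD105neg, then 3.74 FPKM in CD105low and 1.81 FPKM in CD105high, so that each step of the sort had less. CD105high held 0.30 times the level of CD105neg (log2 fold change -1.31), and 49 of the 11343 genes were as low or lower. Among the 5424 genes whose highest value was from 1 to below 10 FPKM, 27 were as low or lower. The step from CD105low to CD105high was also past 1.5-fold (-0.75), and that from CD105neg to CD105low was just inside (-0.56). An unnamed gene annotated on the other strand covers 4.63% of the exonic bases of IGFBP5, and reads of both cannot be told apart in libraries that do not mark strand.

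IGFBP3 (ENSG00000146674.14), the main carrier of IGFs in serum, was measured at 1.25 FPKM in CD105neg, with 1.12 FPKM in CD105low and 1.24 FPKM in CD105high. IGFBP7 (ENSG00000163453.11) stood at 5.08, 4.13 and 4.08 FPKM in the same order. Neither was 1.5-fold apart in any pair, and the log2 fold changes ranged from -0.26 for IGFBP7 in CD105high against CD105neg to 0.07 for IGFBP3 in CD105high against CD105low. The value of IGFBP7 may hold reads of POLR2B, which overlaps 14.0% of its exonic bases on the other strand. IGFBP1, which is not among the 9 genes and lies next to IGFBP3, was listed at 0 in CD105neg and at 0.05 and 0.10 FPKM in CD105low and CD105high.

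Summed over IGFBP1 to IGFBP7, binding protein transcripts came to 192 FPKM in CD105neg, to 286 FPKM in CD105low and to 375 FPKM in CD105high, a ratio of 1.95 between the ends of the sort. IGFBP2 and IGFBP4 made up 91.3%, 94.0% and 96.2% of that sum. The share of IGFBP2 was 53.9%, 57.1% and 61.1%, that of IGFBP4 37.4%, 36.9% and 35.1%, and that of IGFBP5 3.12%, 1.31% and 0.48%. The larger sum therefore came with a narrower make-up. For the neighbours IGFBP2 and IGFBP5 the ratio of levels was 17.2 in CD105neg, then 43.6 in CD105low, and reached 126 in CD105high; such a ratio within a library does not depend on how libraries were scaled to each other.

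**Figure D2:**
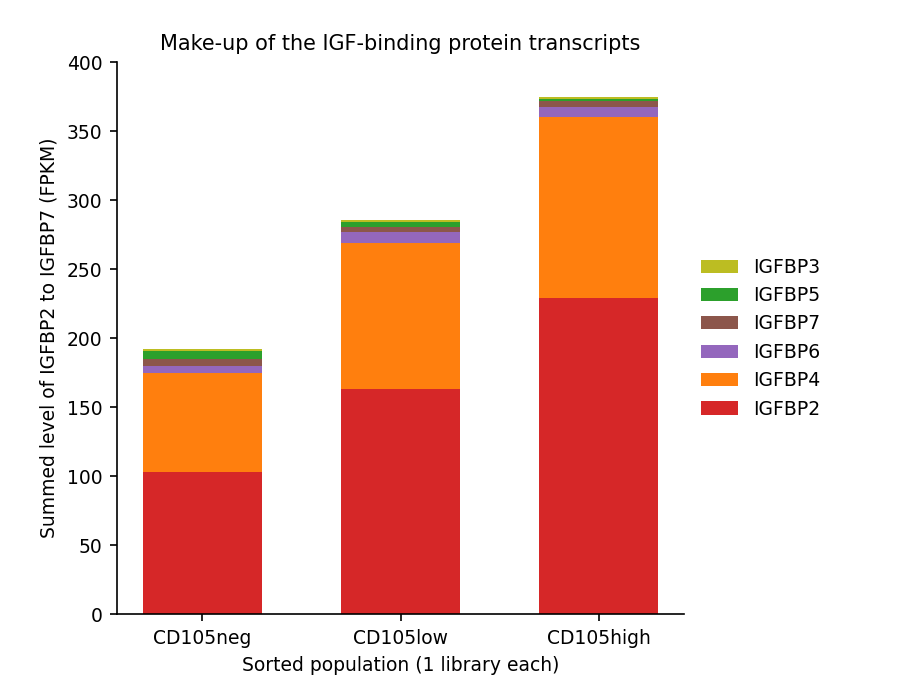
Level of IGFBP2 to IGFBP7 stacked in 1 bar per library (FPKM, axis from 0). The bars reach 192, 286 and 375 FPKM, and IGFBP2 and IGFBP4 fill 91.3% to 96.2% of each.

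The signalling receptor gene IGF1R (ENSG00000140443.13) had a level of 14.9 FPKM in CD105neg, against 25.5 FPKM in CD105low and 26.4 FPKM in CD105high. CD105neg was apart from the other two, which were nearly level. The log2 fold change was 0.79 for CD105high against CD105neg and 0.74 for CD105low against CD105neg, both past 1.5-fold, and 0.05 between CD105high and CD105low. Of the 5431 genes whose highest value was from 10 to below 100 FPKM, 168 were at least as high as IGF1R in CD105low against CD105neg. No part of the sampled sequence of IGF1R, and none of that of IGF2R, occurs in another annotated gene.

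IGF2R (ENSG00000197081.12) was measured at 16.2 FPKM in CD105neg, with 17.1 FPKM in CD105low and 17.7 FPKM in CD105high, and gave log2 fold changes of 0.05 to 0.12. The ratio of IGF2R to IGF1R was accordingly 1.09 in CD105neg and 0.67 in both of the others. INSR, the insulin receptor, which can pair with IGF1R and binds IGF2 in one of its isoforms, stood at 6.44, 5.52 and 4.91 FPKM and was not 1.5-fold apart in any pair. IGF1R was 2.31 times INSR in CD105neg, 4.62 times in CD105low and 5.38 times in CD105high.

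The ligand genes had low listed values. IGF2 (ENSG00000167244.18), the fetal growth factor expressed from the paternal allele, was measured at 0.94 FPKM in CD105neg, with 0.62 FPKM in CD105low and 0.58 FPKM in CD105high, below the floor in all 3 libraries, and is left out of every count. These values are also uncertain because 87.5% of its sampled sequence occurs in other annotated genes, among them a second entry named IGF2 and the read-through gene INS-IGF2. IGF1 stood at 0.03 to 0.08 FPKM, and INS, the insulin gene, was listed at 0 in all 3 libraries. Of the sampled sequence of IGF1 and INS, 66.3% and 36.2% is shared with other genes, so their values are uncertain too. Of 11 further ligands, receptors and binding partners, 4 reached 1 FPKM, and none of these was 1.5-fold apart in any pair. Besides INSR these were M6PR, the smaller mannose 6-phosphate receptor (23.2, 22.5 and 20.7 FPKM, with 25% of its sampled sequence shared with other genes), the endocytic receptor gene LRP1 (9.60, 9.94 and 8.71 FPKM) and the sorting receptor gene SORT1 (8.26, 7.94 and 8.04 FPKM).

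Counted together, 3 of the 8 IGF genes at or above the floor were at least 1.5-fold higher in CD105high than in CD105neg (IGFBP2, IGFBP4 and IGF1R) and 1 was lower (IGFBP5). Among all 11343 genes, 5.65% were higher and 6.88% lower by the same rule. The median log2 fold change was 0.34 over the 8 genes and -0.09 over all genes. Centring on that median changed the count over all genes from 641 higher and 780 lower to 837 higher and 511 lower, and that of the IGF genes to 4 higher, with IGFBP6 added, and 1 lower. Scaling each library to the mean of the 3 sums, which leaves the size of the floor and the pseudocount nearly as it was, moved the median of all genes from -0.09 to 0.02, and likewise gave 4 higher and 1 lower of the IGF genes. Over all genes that scaling gave 7.66% higher and 4.32% lower.

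**Figure D3:**
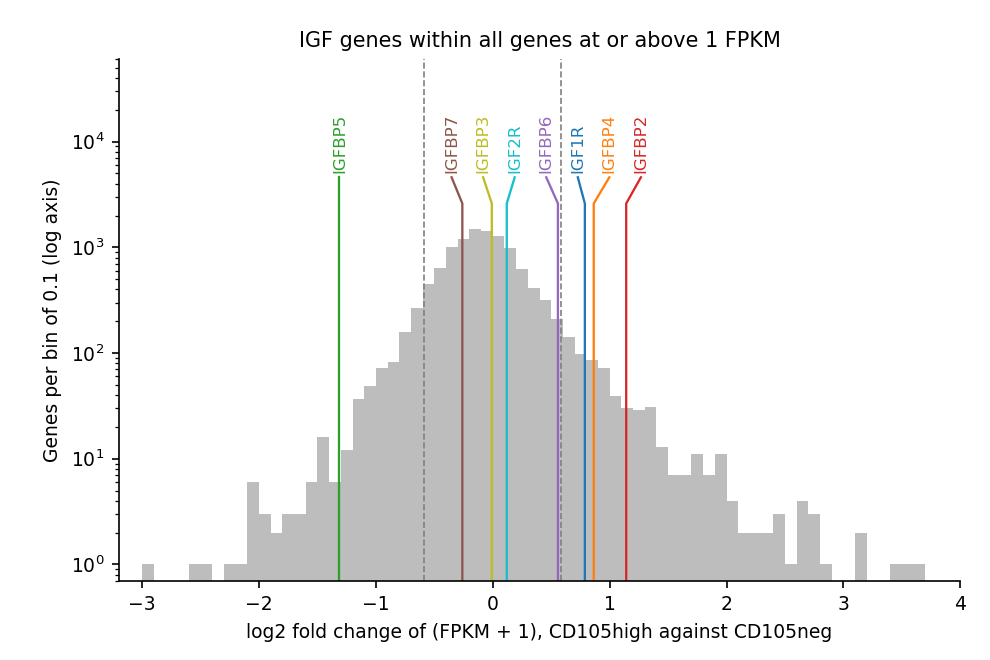
Number of genes per bin of 0.1 (log axis) against the log2 fold change of FPKM plus 1 in CD105high against CD105neg, for the 11343 genes at or above 1 FPKM in a library, with dashed lines at 1.5-fold. Coloured lines mark the 8 IGF genes, of which IGFBP5 lies in the left tail and IGF1R, IGFBP4 and IGFBP2 lie to the right of the upper dashed line.

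In CD105low against CD105neg, 3 of the 8 genes were higher (IGFBP2, IGF1R and IGFBP6) and none was lower, against 4.13% and 2.18% of all genes, and the median was 0.31 against 0.02. In CD105high against CD105low, none was higher and 1 was lower (IGFBP5), against 1.18% and 2.19% of all genes, and the median was 0.05 against -0.10. The comparisons share libraries, CD105neg in the first pair of comparisons and CD105low or CD105high in the others, so the counts are not independent of each other. Values that went up at both steps of the sort were those of IGFBP2, IGFBP4, IGF1R and IGF2R, and values that went down at both steps were those of IGFBP5 and IGFBP7; IGF2 also went down at both steps, below the floor. Over all 11343 genes, 17.6% went up and 36.4% went down at both steps. With libraries scaled to a common sum, IGFBP7 no longer followed that order and the others did.

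**Figure D4:**
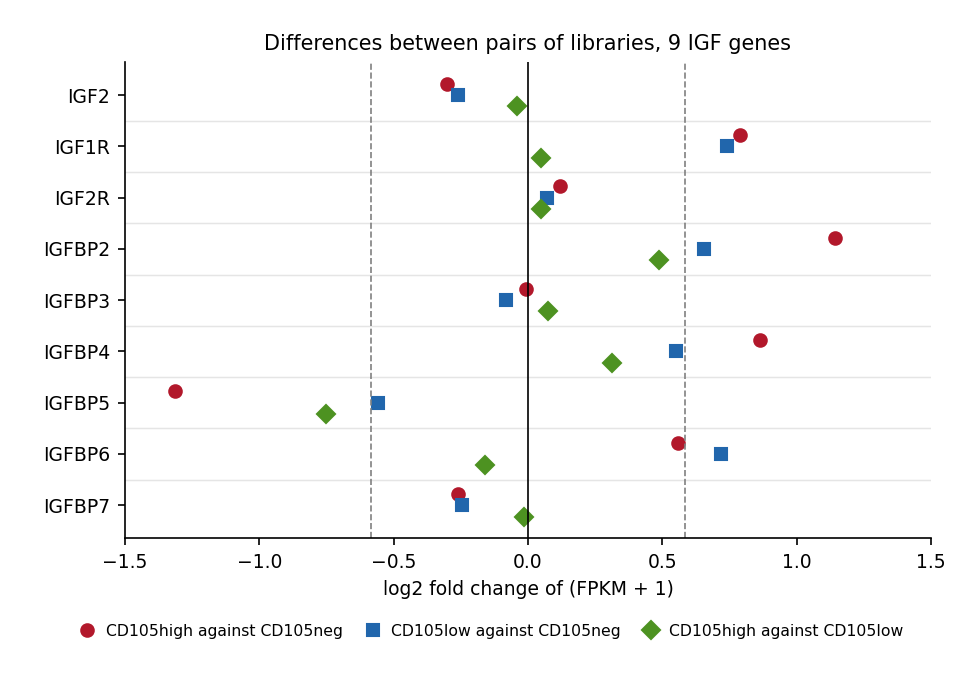
Log2 fold change of FPKM plus 1 for each of the 9 IGF genes in the 3 pairs of libraries (circles for CD105high against CD105neg, squares for CD105low against CD105neg, diamonds for CD105high against CD105low), with dashed lines at 1.5-fold. IGFBP2 and IGFBP5 are farthest from 0 on opposite sides, at 1.14 and -1.31, and the circle and square of IGF1R nearly coincide.

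Several secreted proteins share the amino-terminal fold of the IGF-binding proteins. Of 13 such relatives with a value, 8 reached 1 FPKM. In CD105high against CD105neg, 2 of them were higher and 1 was lower, against 5.65% and 6.88% of all genes. Counts this small cannot be set apart from those shares. The proteoglycan gene ESM1 stood at 0.10, 3.60 and 12.8 FPKM in CD105neg, CD105low and CD105high (log2 fold change 3.65). CRIM1, a membrane protein gene of the endothelium, stood at 16.7, 27.5 and 30.8 FPKM (0.84). The serine protease gene HTRA3 stood at 5.58, 3.50 and 2.97 FPKM (-0.73). The remaining 5 were inside the limit in every pair. CYR61 and CTGF, matrix signalling genes of the CCN family, stood at 19.2, 14.5 and 16.4 FPKM and at 7.35, 7.03 and 9.24 FPKM. HTRA1, which cleaves IGFBP5, stood at 18.7, 23.6 and 23.1 FPKM, IGFBPL1 at 2.18, 1.42 and 1.19 FPKM, and KAZALD1 at 1.55, 1.45 and 1.60 FPKM. In CD105low against CD105neg, ESM1 and CRIM1 were the 2 that were higher, against 4.13% of all genes. In CD105high against CD105low it was ESM1 alone, against 1.18%.

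Of 11 genes of enzymes that can cut IGF-binding proteins, or of their inhibitors, 5 reached 1 FPKM and 1 was at least 1.5-fold higher in CD105high than in CD105neg, a count too small to set against the 5.65% of all genes. That gene was PLAU, urokinase, which activates plasmin, at 16.6, 29.4 and 35.2 FPKM (log2 fold change 1.04), with 16.8% of its sampled sequence shared with other genes. The protease gene MMP2 stood at 25.8, 31.3 and 25.1 FPKM, ADAM9 at 15.1, 18.5 and 17.8 FPKM, and STC1, an inhibitor of PAPP-A, at 1.29, 1.14 and 0.95 FPKM. PAPPA itself, the gene of the protease that cuts IGFBP4, stood at 0.14 to 0.16 FPKM, below the floor.

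The 3 genes of proteins that bind IGF2 mRNA had far higher values than IGF2, whose own values are uncertain. None of the 3 was 1.5-fold apart in any pair. IGF2BP1 stood at 34.3, 31.0 and 25.5 FPKM, IGF2BP2 at 26.6, 27.6 and 27.9 FPKM, and IGF2BP3, which shares 25.4% of its sampled sequence, at 20.1, 26.7 and 22.7 FPKM. These proteins bind many other transcripts as well.

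Downstream of the receptors, of 16 adaptors and regulators at or above the floor, 2 were higher in CD105high than in CD105neg and none was lower, where the shares of all genes were 5.65% and 6.88%. GAB1, a docking protein gene, stood at 7.24, 9.95 and 14.5 FPKM (log2 fold change 0.91), and GRB10, an adaptor that binds and restrains the insulin and IGF1 receptors, at 18.7, 28.0 and 34.6 FPKM (0.86). The next largest differences in this list were those of SH2B2 (0.53) and DOK5 (-0.41). The receptor substrate genes IRS1 and IRS2 were low, at 0.96 to 1.16 FPKM and 1.29 to 1.41 FPKM. Of 24 genes of the PI3K, AKT and mTOR core, 1 was higher and none was lower, with a median of -0.08, so the share that was higher was near that of all genes (5.65%). That gene was PIK3CA, the catalytic subunit p110 alpha, at 6.30, 9.47 and 10.1 FPKM (0.61), with 27.7% of its sampled sequence shared. PIK3R3 (0.49) and PIK3R1 (0.40), which encode regulatory subunits, were inside the limit. With libraries scaled to the mean of the 3 sums, PIK3R3 was past it, as was SH2B2. For the same pair AKT1, AKT2 and MTOR had log2 fold changes of -0.07, -0.18 and -0.17.

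IGF2 is imprinted, meaning that 1 parental copy is silent, and 12 other imprinted genes had a value. Of the 11 at or above the floor, 2 were counted as lower in CD105high against CD105neg and none as higher, against 6.88% and 5.65% of all genes. They were SNURF, at 36.0, 39.0 and 16.4 FPKM (log2 fold change -1.09), which shares 74.4% of its sampled sequence, mainly with SNRPN, and PHLDA2, a growth-restraining gene of the placenta, at 1.72, 1.12 and 0.80 FPKM (-0.60). MEST (-0.53) and CDKN1C, a cell cycle inhibitor gene (-0.42), came next. SNURF alone was counted after centring, with libraries scaled to the mean of the 3 sums, with a pseudocount of 5, with a floor of 10 FPKM and with a limit of 2-fold.

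Markers of cell types also differed between the libraries, in directions that varied between and within the lists. Of 14 endothelial markers, 11 were at least 1.5-fold higher in CD105high than in CD105neg and none was lower. Among all 11343 genes, 5.65% were higher and 6.88% lower by the same rule. The median log2 fold change of the endothelial markers was 0.76, and their summed levels were 1523, 2107 and 2213 FPKM. IGFBP2, IGFBP4 and IGF1R lay within the range of the endothelial markers, which ran from -0.08 for EGFL7 to 2.70 for CD93. The lower end of that range was near the median of all genes (-0.09), so lying within it does not set these genes apart. Of 15 mesenchymal and mural markers, 11 were at or above the floor, 5 of these were lower in CD105high and 1 was higher, and the sums were 531, 525 and 453 FPKM. PDGFRB, a receptor gene of mural cells, stood at 9.05, 4.99 and 2.74 FPKM and COL1A1, a fibrillar collagen gene, at 21.4, 14.6 and 8.57 FPKM, while COL1A2 stood at 216, 199 and 177 FPKM and the mural gene RGS5 at 114, 124 and 111 FPKM. DCN and MYH11, markers of fibroblasts and smooth muscle, were at or near 0 in every library, at no more than 0.03 FPKM. Others of the list were not: TAGLN stood at 77.5, 66.1 and 41.9 FPKM and ACTA2 at 20.4, 23.1 and 24.2 FPKM. THY1, the 1 counted as higher, stood at 33.6, 53.9 and 57.3 FPKM. Of 9 erythroid and megakaryocyte markers at or above the floor, all 9 were lower in CD105high. The sums over the 15 listed were 71.2, 26.7 and 13.4 FPKM. IGFBP5 (-1.31) lay within the range of these 9, from -2.51 for HBE1 to -0.81 for PF4. It also lay within that of the mesenchymal and mural markers, from -1.43 for PDGFRB to 0.75 for THY1. The latter range passes the 1.5-fold limit on both sides, so lying within it says little. Blood cell surface genes summed to 5.38 to 7.39 FPKM, with PTPRC (CD45) at or near 0 and MPO at 0, and endoderm markers summed to 8.23 to 9.62 FPKM. All 4 endoderm markers at or above the floor were counted in CD105high against CD105neg, CER1 (1.24) and APOB (0.59) as higher and APOA1 (-0.66) and APOA2 (-0.74) as lower. Pluripotent and epithelial markers summed to 106, 98.3 and 86.9 FPKM. Of 8, 1 was lower in CD105high than in CD105neg, a count too small to set against the 6.88% of all genes. The part of these cell types in the values of IGFBP2, IGFBP4, IGFBP5 and IGF1R was not tested.

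**Figure D5:**
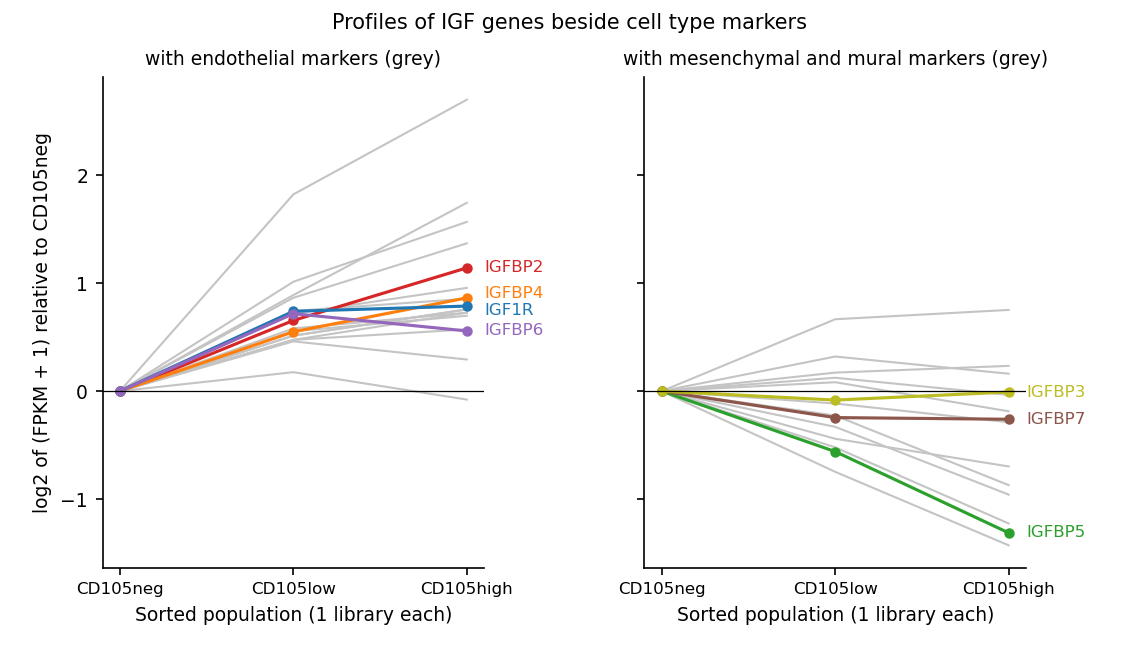
Log2 of FPKM plus 1 relative to CD105neg in the 3 libraries, with IGFBP2, IGFBP4, IGF1R and IGFBP6 beside 14 endothelial markers (left, grey) and IGFBP5, IGFBP7 and IGFBP3 beside 11 mesenchymal and mural markers (right, grey), each line joining 1 value per library. The 4 coloured lines on the left run among the grey ones, and IGFBP5 on the right ends at -1.31, near the lowest grey line. Erythroid and megakaryocyte markers, of which all 9 at or above the floor were lower in CD105high than in CD105neg, are not drawn.

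Genes with the most similar profile were found for the 5 IGF genes that were 1.5-fold apart in a pair. Likeness was the distance between log2 profiles centred on each gene's own mean, over 3 libraries, and 5894 genes that reached 10 FPKM were searched. With only 3 points a close match says little, and 5 to 45 genes lay within a distance of 0.1 of each. For IGFBP2 the nearest were GSN (gelsolin, which severs actin filaments; 91.6, 145 and 203 FPKM), RPS6KA2 and ECM1. For IGFBP4 they were GRB10, JAK1 and P2RX4, for IGF1R SH2D3C, ICA1 and RNASE1, and for IGFBP6 RCSD1, MDFI and PTPN14. IGFBP5 had 5 genes within 0.1, and the nearest were ANAPC13 (25.9, 16.5 and 9.70 FPKM) and COL1A1. Among the 9 genes themselves, IGFBP2 and IGFBP4 were 0.20 apart, IGF1R and IGFBP6 0.18 apart, and IGFBP2 and IGFBP5, the neighbours on the chromosome, 1.74 apart, the largest distance of any pair.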

How the data were processed

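RNA-seq was measured in 3 libraries of CD31+CD34+ cells from H1, 1 for each level of CD105. Libraries were prepared with the TruSeq RNA Sample Prep Kit, per the labels' protocols; that kit leaves strand unmarked. BWA, Bowtie, RSEM and hg19 are named in the submitters' processing notes, with no role, order or version. For filters and annotation, details were not given in the sources used here. The deposited values were treated as FPKM; per the file headers no unit is named, and TPM is not told apart from FPKM by the values. The value column of the CD105neg library is named as CD105 positive, and its group follows the sample title.

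Tables were joined on gene identifier with Python 3.11.15 and pandas 2.3.3. Fold changes used a pseudocount of 1, a floor of 1 FPKM and a limit of 1.5-fold. The absolute depth is unknown. Low values of single-transcript genes, times transcript length, fell on multiples of a step (41.4%, 40.7% and 39.7% within 0.04 steps, against a median of 5.50%, 7.28% and 6.90% over other steps), which gives depths of 1.11 for CD105low and 1.04 for CD105high relative to CD105neg if the values are FPKM. No counting interval is given.

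Shared sequence is the share of 50-base pieces, taken every 40 bases from a gene's GENCODE 29 transcripts, that also occur in another gene. Calling code was tested on simulated data. The 9 genes and all lists were chosen with earlier results of these data known. Named from the lists were all genes at or above 1 FPKM in the ligand, relative, protease and IGF2 mRNA-binding lists, and up to 4 with the largest change of CD105high against CD105neg in the others; further genes of those lists, and the markers named, were chosen after their values were seen. Of the genes listed, LIN28A, TERF1, H19, KCNQ1OT1, MEG3, PEG3 and PLAGL1 were not analysed here, and the CCN genes were found under their older symbols. Some genes that this rule names are not reported here. Alternatives were pseudocounts of 0.1 and 5, a floor of 10 FPKM or none, a limit of 2-fold, centring on the median, and scaling each library to a sum of 1000000 or, chosen after seeing the data, to the mean of the 3 sums.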

Additional observations from a re-analysis of the deposited data

How the results depend on the processing

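Over 48 recounts of the IGF genes under the alternative settings, 37 stayed within 1.5 times the reported count. With a limit of 2-fold, the genes higher in CD105high than in CD105neg fell from 3 to 1 (IGFBP2), those higher in CD105low than in CD105neg from 3 to 0, and those lower in CD105high than in CD105low from 1 to 0. The shares of all genes fell as well, in the same order from 5.65% to 1.89%, from 4.13% to 0.996% and from 2.19% to 0.379%. With a floor of 10 FPKM, which IGFBP5 does not reach, the genes lower in CD105high were 0 against CD105neg and 0 against CD105low. Of all genes at that floor, 6.4% and 2.21% were lower. With a pseudocount of 5 the count lower in CD105high than in CD105low was 0, where 0.661% of all genes were lower. With a pseudocount of 0.1, and with libraries scaled to a sum of 1000000, IGFBP5 was also counted as lower in CD105low than in CD105neg (1 gene). Of all genes, 3.94% and 3.57% were lower under these 2 settings. The latter setting also makes the floor and the pseudocount smaller beside the values, so that 13041 genes pass the floor. With centring, which changes the scale alone, and with scaling to the mean of the 3 sums, an alternative chosen after seeing the data, IGFBP5 was not counted there (0 genes). The shares of all genes were then 2.4% and 1.92%. With each of these 3 ways of scaling, IGFBP2 was also counted as higher in CD105high than in CD105low (1 gene). Of all genes, 2.75% were higher with a sum of 1000000, 1.77% with centring and 1.74% with the mean of the 3 sums. No counted log2 fold change of an IGF gene changed sign under the alternatives run; of 162 recomputed values, 8 passed from counted to not counted and 9 the other way. For the other lists, 44 of 336 recounts moved by over 1.5 times. No paired analysis was possible because each group has 1 library, and for the same reason no library was left out. Low values, those of IGF2 and IGFBP3 above all, are limited by an unknown depth.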

Other observations

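SNURF and SNRPN, imprinted genes that share a promoter region and much of their sequence, gave different values in the same libraries. SNURF had 36.0 FPKM in CD105neg, with 39.0 FPKM in CD105low and 16.4 FPKM in CD105high, and SNRPN had 139, 133 and 128 FPKM in the same order. Of the sampled sequence, 74.4% of SNURF and 53.4% of SNRPN is shared with other genes.

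GRB10, which restrains signalling from the IGF1 and insulin receptors, was the gene nearest in profile to IGFBP4 (distance 0.01 over 3 libraries). It stood at 18.7, 28.0 and 34.6 FPKM. It was 1 of 45 genes within a distance of 0.1, and with only 3 points a close match says little.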
